A study of Mus musculus with 8 samples.

Results

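The genes examined here carry ions across the apical membrane of the intestinal epithelium, or belong to the guanylin system that regulates this transport. They are 9 of the 54532 genes in the count table, chosen by gene symbol: the absorptive exchangers Slc9a3, Slc26a3 and Slc26a6, the exchanger scaffold Slc9a3r1, the sodium pump subunit Atp1b1, the secretory chloride channel Cftr, the receptor Gucy2c and its ligands Guca2a and Guca2b. All 9 were counted in every library and passed the filter on low counts, which left 9855 genes for testing.

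Epithelial cells from the intestine of mice at lactation day 5 were profiled, with 4 WT and 4 Rank-knockout animals and 1 library from each. Rank, the gene Tnfrsf11a, encodes the receptor of the cytokine RANKL. It was deleted with a Cre recombinase driven by the Villin1 promoter, which is active in the epithelium of the gut. Mice were age-matched littermates on a C57BL/6J background, the dams had been mated with wild-type males, and both genotypes were lactating. The methods give 1 broad age range for the mice of the whole study, which covers young to adult animals, and not an age for these dams. The epithelial cells were collected in bulk from minced intestine. In such bulk samples, fewer cells of a type and less RNA per cell cannot be told apart.

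In the small intestine, sodium is absorbed from the lumen by the sodium/proton exchanger NHE3, encoded by Slc9a3, while chloride enters in exchange for bicarbonate through DRA and PAT1, encoded by Slc26a3 and Slc26a6. The basolateral sodium pump, of which Atp1b1 is the beta subunit, keeps cell sodium low and so drives this uptake. Secretion works in the opposite direction: chloride is loaded across the basolateral membrane and leaves through the apical channel CFTR, with water following. Guanylin and uroguanylin, made by Guca2a and Guca2b, are peptides released into the lumen. They activate guanylate cyclase C, the product of Gucy2c, and the cyclic GMP formed inhibits NHE3 and opens CFTR.

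The ligand genes Guca2a and Guca2b are neighbours on chromosome 4 of GRCm38, on opposite strands, with 17135 bases and no other annotated gene between them. Their start-site windows, 250 bases before to 50 bases after each RefSeq start on GRCm38.p6, are shown because the pair differed in how far their transcripts moved between genotypes. The Guca2a window lies at chr4:119637482-119637781 on the plus strand and the Guca2b window at chr4:119658896-119659195 on the minus strand. Capitals mark the only matches to 4 short motifs searched on both strands, in lower case otherwise, and each sequence reads along the gene's own strand.
Guca2a: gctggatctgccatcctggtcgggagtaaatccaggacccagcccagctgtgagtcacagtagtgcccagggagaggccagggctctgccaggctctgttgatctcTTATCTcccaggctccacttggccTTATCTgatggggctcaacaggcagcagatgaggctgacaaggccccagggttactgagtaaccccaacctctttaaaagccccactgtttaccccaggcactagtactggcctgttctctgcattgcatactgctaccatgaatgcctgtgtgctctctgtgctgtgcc
Guca2b: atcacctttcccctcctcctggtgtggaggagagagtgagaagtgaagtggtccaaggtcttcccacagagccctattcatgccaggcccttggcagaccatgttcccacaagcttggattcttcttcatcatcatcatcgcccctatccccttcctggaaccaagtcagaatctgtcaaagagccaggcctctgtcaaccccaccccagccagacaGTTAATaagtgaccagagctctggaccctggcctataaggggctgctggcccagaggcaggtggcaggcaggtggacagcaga
In Guca2a the capitals mark the GATA motif AGATAA, which was present 2 times on the opposite strand, 144 and 120 bases before the start. In Guca2b they mark the HNF1 half-site GTTAAT, present 1 time on the gene's strand, 33 bases before the start. The other motifs were the HNF4 motif CAAAGTCCA and the CDX motif TTTATG. Of all 32851 RefSeq promoter windows of this length, 11.2% held the GATA motif, 7.1% the HNF1 half-site, 0.475% the HNF4 motif and 11.9% the CDX motif. The table held windows for 8 of the 9 genes, and of the other 6 the Slc26a3 window alone held a match, with the HNF1 half-site 94 and 84 bases before the start. Gucy2c had no window. Such matches are descriptions of letters and not of binding.

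Total counts ran from 1530781 to 4335653 in the WT libraries and from 2103716 to 4321154 in the Rank-knockout libraries, and no library repeated another. Levels are given as CPM, the counts of a gene scaled to a fixed total after TMM adjustment of the library sizes. As 3′ tags give about 1 read per transcript whatever its length, CPM values were compared between genes without dividing by length. Epithelial genes such as Cdh1 (4599 CPM in WT) and Epcam (2045 CPM) were abundant. Summed levels of 7 leukocyte genes were 64.4 to 202 CPM in WT and 42.7 to 309 CPM in Rank-knockout, and those of 7 stromal and vessel genes 10.7 to 18.2 and 5.85 to 16.9 CPM. The colonic genes Car1, Aqp8 and Saa1 had at most 5 counts in any WT library. Saa1 had 20 counts in Rank-knockout replicate 1. Of the other genes on the same list, Muc13 (3111 CPM in WT) and Mettl7b (115 CPM) were expressed, and both fell (log2 fold changes -0.70 and -1.13). B3galt5, the last of the list, had 3 to 8 counts in each WT library and 95, 7, 5 and 18 counts in Rank-knockout replicates 1 to 4, too few to be tested. Tnfrsf11a itself fell from 60.7 ± 17.7 to 38.0 ± 8.64 CPM (SD, n = 4; log2 fold change -0.67, edgeR adjusted p = 0.0321), with overlapping libraries. It did not pass with library totals (-0.47), with totals that dropped the top 50 genes (-0.54), or when WT replicate 1 or 4 (-0.55 and -0.58) or Rank-knockout replicate 1 or 3 (-0.52 and -0.64) was left out. It was counted in every Rank-knockout library, and tags from the 3′ end check nothing about the deleted part of the gene.

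Most of the absorptive set was lower in Rank-knockout. Of the 9 genes, 5 fell and 0 rose at an edgeR adjusted p under 0.05, where 14.6% of all tested genes were lower and 15.8% were higher. The 5 were Slc9a3, Slc26a6, Slc9a3r1, Atp1b1 and Guca2b. Slc26a3, Gucy2c, Guca2a and Cftr did not pass. At an unadjusted p under 0.05, edgeR gave 7 lower and 0 higher. At that level 4131 of all 9855 tested genes passed, both directions together. After adjustment, DESeq2 gave 6 lower and 0 higher, where it called 1464 of all genes lower and 1313 higher. With limma-voom the counts were 5 and 0, where 1424 and 1435 of all genes were called. In 6 of the 9 every Rank-knockout library lay below every WT library, which held for 14.3% of all tested genes, and in 0 of the 9 above, which held for 14.4%. The median log2 fold change, Rank-knockout minus WT, was -0.80 over the 9 genes and 0.024 over all genes tested.

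**Figure D1:**
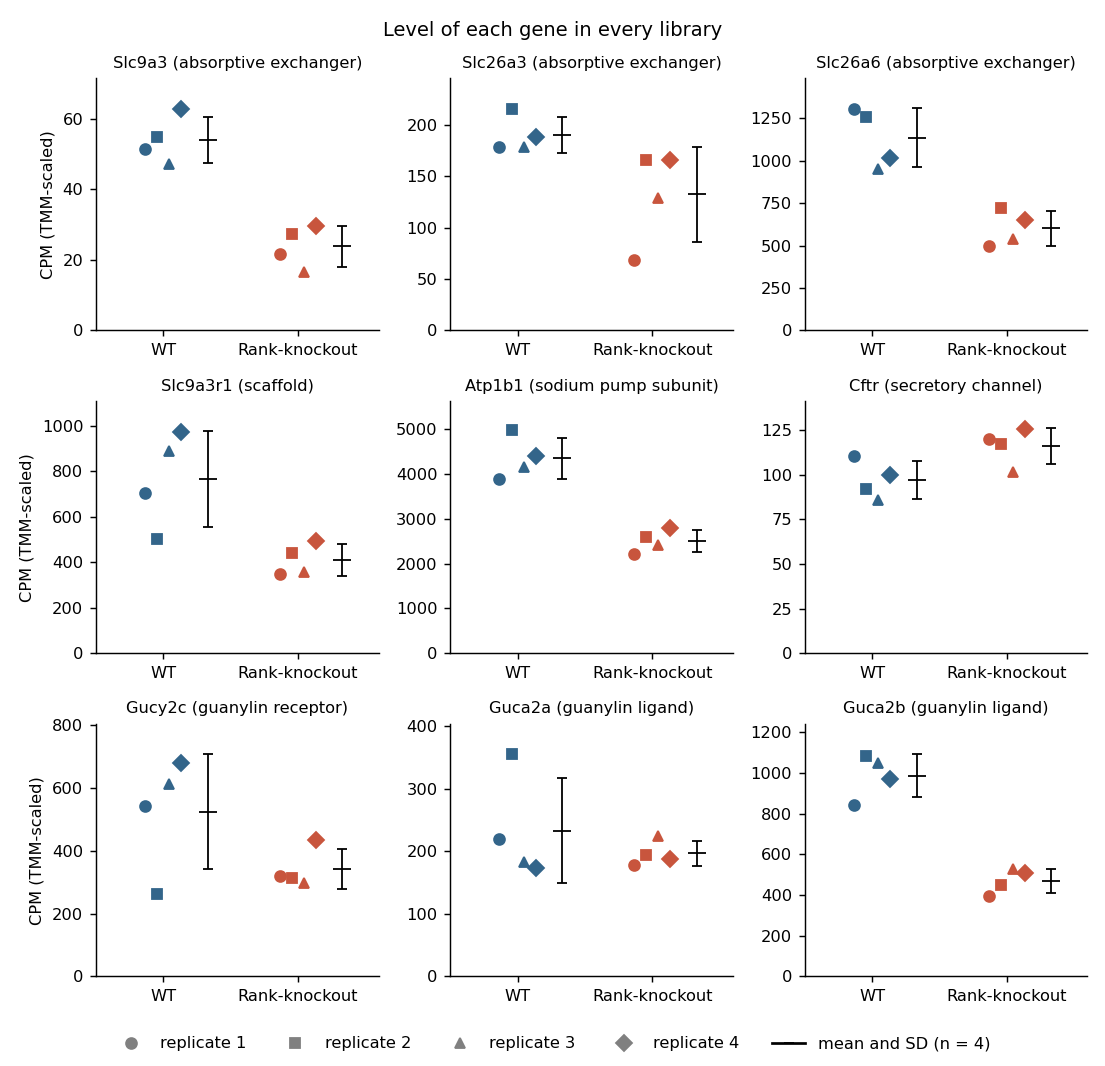
Level of each of the 9 genes in CPM (vertical axis, from 0) in the 4 WT and 4 Rank-knockout libraries. Each symbol is 1 library, with the mean and SD at its right. In Slc9a3, Slc26a3, Slc26a6, Slc9a3r1, Atp1b1 and Guca2b all Rank-knockout libraries lie below all WT libraries, while the genotypes overlap in Cftr, Gucy2c and Guca2a.

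Among the absorptive exchangers, Slc9a3 (ENSMUSG00000036123, chromosome 13, 74121457 to 74169442, plus strand) had the largest fall. Its level was 51.4, 54.7, 47.1 and 62.6 CPM in WT replicates 1 to 4, and 21.7, 27.4, 16.6 and 29.5 CPM in Rank-knockout replicates 1 to 4. The highest Rank-knockout library thus lay well under the lowest WT library. The means were 54.0 ± 6.54 and 23.8 ± 5.82 CPM (SD, n = 4 per genotype), and the log2 fold change was -1.17 (SE 0.19; 95% interval -1.58 to -0.76; edgeR adjusted p = 0.000615). It was also the least abundant of the 9 in both genotypes, resting on 37 to 216 counts per library.

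Slc26a6 (ENSMUSG00000023259, chromosome 9, 108853283 to 108913049, plus strand), the PAT1 exchanger, was the most abundant of the exchangers. It was counted at 1306, 1258, 953 and 1018 CPM in WT and at 497, 722, 540 and 647 CPM in Rank-knockout, again with no overlap. The mean went from 1134 ± 174 to 602 ± 102 CPM (SD, n = 4), which made the log2 fold change -0.91 (SE 0.16; 95% interval -1.26 to -0.57; edgeR adjusted p = 0.000945).

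Slc26a3 (ENSMUSG00000001225, chromosome 12, 31390871 to 31473917, plus strand), the DRA exchanger, moved less and did not pass the threshold. WT libraries held 178.8, 215.6, 178.2 and 188.4 CPM and Rank-knockout libraries 68.3, 165.9, 129.0 and 166.1 CPM. The libraries did not overlap, but Rank-knockout replicate 1 stood far below the other 3, and replicates 2 and 4 came close to the lowest WT library. The means were 190 ± 17.5 and 132 ± 46.1 CPM (SD, n = 4), with a log2 fold change of -0.53 (SE 0.22; 95% interval, not adjusted, -1.01 to -0.048; edgeR adjusted p = 0.0882). Without Rank-knockout replicate 1 the log2 fold change was -0.31 (edgeR adjusted p = 0.15), and without Rank-knockout replicate 4 it was -0.66 and passed (0.0447). A pseudogene, Gm9359, lies within the gene on the same strand and had 0 counts in all libraries.

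Slc9a3r1 (ENSMUSG00000020733, chromosome 11, 115163341 to 115181181, plus strand) encodes NHERF1, a PDZ scaffold that holds NHE3 and CFTR at the apical membrane. Its WT libraries spread widely, at 703, 501, 888 and 970 CPM, and its Rank-knockout libraries were at 346, 441, 356 and 491 CPM. The lowest WT library, replicate 2, was only just above the highest Rank-knockout library, replicate 4. The mean fell from 765 ± 209 to 409 ± 69.7 CPM (SD, n = 4), which made the log2 fold change -0.90 (SE 0.19; 95% interval -1.32 to -0.49; edgeR adjusted p = 0.00306).

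Atp1b1 (ENSMUSG00000026576, chromosome 1, 164437109 to 164458355, minus strand) was the most abundant of the 9 in both genotypes. It was counted at 3882, 4965, 4155 and 4386 CPM in WT and at 2205, 2595, 2403 and 2786 CPM in Rank-knockout. Even the highest Rank-knockout library stayed far below the lowest WT library. The mean went from 4347 ± 461 to 2497 ± 250 CPM (SD, n = 4), with a log2 fold change of -0.80 (SE 0.15; 95% interval -1.11 to -0.49; edgeR adjusted p = 0.00116). Nme7 overlaps the 3′ end of Atp1b1 on the opposite strand and had 143 counts over all libraries, and the counting was strand-specific.

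Atp1b3, another beta subunit of the sodium pump, rose from 21.02 to 33.0 CPM (log2 fold change 0.70, edgeR adjusted p = 0.0285) and stayed far below Atp1b1. It no longer passed when WT replicate 1 or 2 was left out (log2 fold changes 0.64 and 0.48), or Rank-knockout replicate 1 or 3 (0.61 and 0.66).

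On the secretory side, Cftr (ENSMUSG00000041301, chromosome 6, 18170687 to 18322768, plus strand) did not pass the test in either direction. Its levels were 110, 91.7, 86.0 and 99.8 CPM in WT and 120, 117, 102 and 125 CPM in Rank-knockout. The genotypes overlapped only through WT replicate 1 and Rank-knockout replicate 3. The means were 97.0 ± 10.5 and 116 ± 10.2 CPM (SD, n = 4), and the log2 fold change was 0.26 (SE 0.14; 95% interval -0.033 to 0.56; edgeR adjusted p = 0.166). That interval runs from 0.977 to 1.47 times the WT level, which takes in both an equal level and a rise of up to that size. Scaling by library totals gave 0.46 (edgeR adjusted p = 0.0205), and totals taken after dropping the top 50 genes gave 0.39 (0.0446). Both passed the threshold, and these scalings moved the median of all genes by 0.20 and 0.13. The pseudogene Gm15595 on the same strand and the antisense gene Gm15592 within Cftr had 0 counts.

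**Figure D2:**
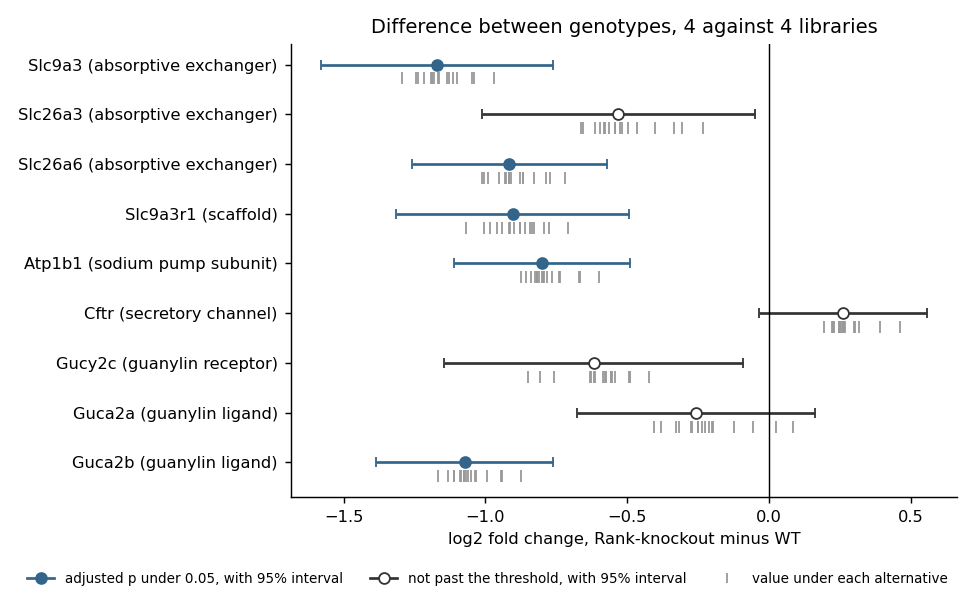
Log2 fold change of each gene, Rank-knockout minus WT (horizontal axis), with its 95% interval; filled points passed an edgeR adjusted p of 0.05 and open points did not. Grey ticks give the value under each alternative. Slc9a3, Slc26a6, Slc9a3r1, Atp1b1 and Guca2b stay below 0 throughout, Cftr lies above 0 at every tick, and Guca2a has ticks on both sides.

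Absorptive exchangers were then set against Cftr within each library, a difference that does not depend on the scaling between libraries. The mean log2 CPM of the 3 exchangers exceeded that of Cftr by 1.05, 1.42, 1.21 and 1.19 in WT. In Rank-knockout the difference was -0.39, 0.35, 0.061 and 0.23. Every Rank-knockout library was thus below every WT library. The group means were 1.22 ± 0.15 and 0.063 ± 0.33 (SD, n = 4), a change of -1.16 on the log2 scale. No test was applied to this ratio, as the genes in it were chosen with their values known.

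Each exchanger gave the same order of genotypes. The difference Slc9a3 minus Cftr changed by -1.44 on the log2 scale, Slc26a6 minus Cftr by -1.17 and Slc26a3 minus Cftr by -0.86, without overlap. This was not particular to the exchangers. Against Cftr, Guca2b (-1.33), Slc9a3r1 (-1.13) and Atp1b1 (-1.06) also fell without overlap, and Gucy2c (-0.81) and Guca2a (-0.45) with overlap. As linear ratios, Slc26a6 was 10.1 to 13.6 times Cftr in WT and 4.14 to 6.14 times in Rank-knockout. Slc26a3 exceeded Cftr in all WT libraries, at 1.62 to 2.34 times, and in Rank-knockout it was 0.574 to 1.41 times, below Cftr in replicate 1 alone. Between exchangers, the 3 differences overlapped between genotypes. For Slc26a6 minus Slc26a3 and Slc9a3 minus Slc26a3 the overlap came from Rank-knockout replicate 1 alone. The other 3 Rank-knockout libraries lay below every WT library, at 1.96 to 2.12 against 2.41 to 2.86 for the first and at -2.90 to -2.46 against -1.96 to -1.58 for the second, on the log2 scale. Slc9a3 minus Slc26a6 was -4.65 to -4.01 in WT and -4.96 to -4.42 in Rank-knockout.

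**Figure D3:**
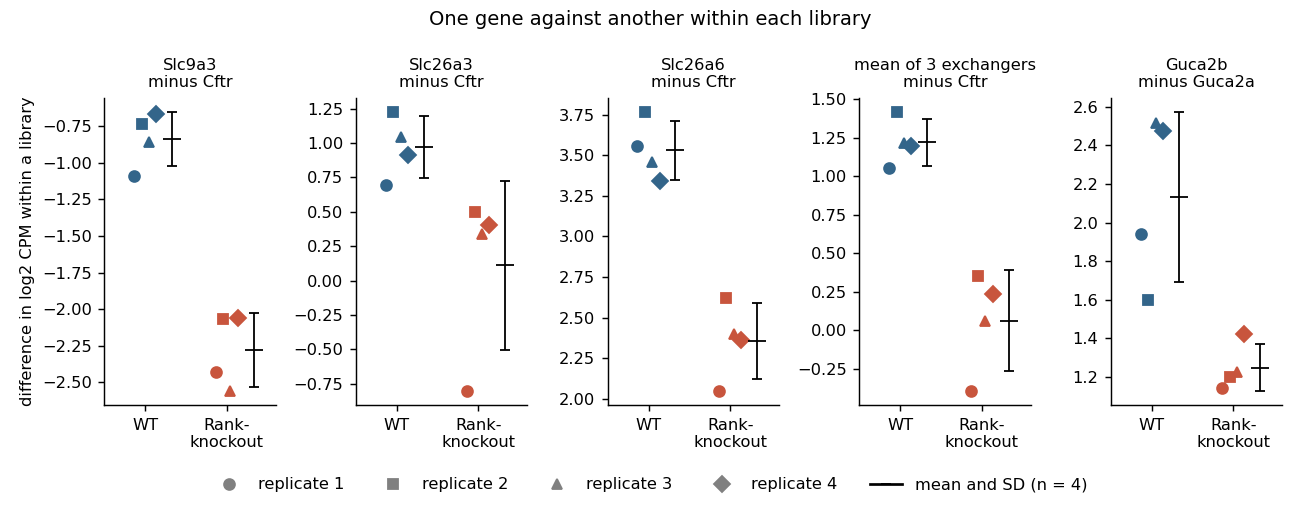
Difference in log2 CPM between 1 gene and another within each library (vertical axis; scales differ between panels), with mean and SD. In all 5 panels the Rank-knockout libraries lie below the WT libraries, and for the mean of the 3 exchangers against Cftr the means are 1.22 in WT and 0.063 in Rank-knockout.

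The basolateral partners of chloride secretion were examined beside Cftr. Slc12a2, the NKCC1 cotransporter that loads chloride, was at 175, 135, 108 and 136 CPM in WT and at 430, 198, 328 and 171 CPM in Rank-knockout. Rank-knockout replicates 1 and 3 were far above all WT libraries, and replicate 4 was within the WT range. This was a rise of 1.03 on the log2 scale (SE 0.27; edgeR adjusted p = 0.0149). Leaving out both WT replicate 2 and Rank-knockout replicate 1 lowered it to 0.74, which did not pass (0.0567).

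Basolateral potassium channels recycle potassium and keep the driving force for chloride exit. Kcne3, which pairs with Kcnq1 in these cells, was at 105, 114, 58.0 and 51.3 CPM in WT and 242, 174, 200 and 102 CPM in Rank-knockout. Its log2 fold change was 1.11 (edgeR adjusted p = 0.0207), with Rank-knockout replicate 4 inside the WT range. It was 0.96 when WT replicate 3 was left out, 0.93 when Rank-knockout replicate 1 was and 1.06 when Rank-knockout replicate 3 was, and did not pass in these fits.

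Kcnq1 was at 45.9, 54.0, 34.8 and 26.6 CPM in WT and 72.4, 68.7, 75.1 and 41.1 CPM in Rank-knockout. It rose by 0.64 (edgeR adjusted p = 0.0457), a call that was lost in 9 of 17 alternatives, among them 6 of the 8 that left out 1 library, where the value ran from 0.46 to 0.83. The calcium-activated channel Kcnn4, at 80.8, 77.8, 60.1 and 43.9 CPM against 175, 96.1, 112 and 82.8 CPM, rose by 0.82 (edgeR adjusted p = 0.0192). Its libraries did not overlap, and it failed to pass when WT replicate 3, WT replicate 4 or the first Rank-knockout library was left out (0.76, 0.64 and 0.55).

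**Figure D4:**
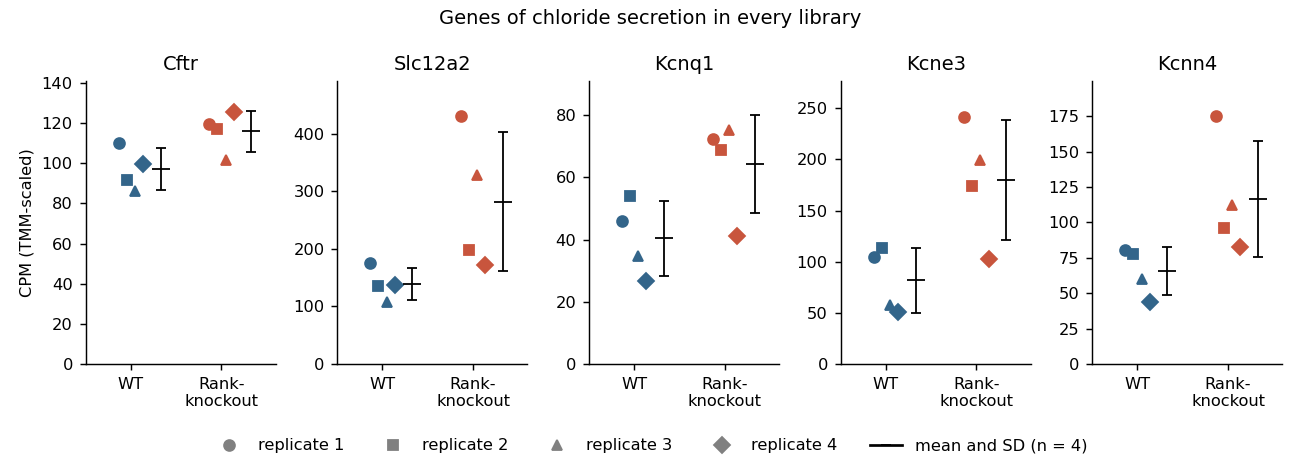
Level in CPM (vertical axis, from 0) of Cftr and of 4 basolateral genes of chloride secretion in each library, with mean and SD. Rank-knockout replicate 1 is the highest library for Slc12a2, Kcne3 and Kcnn4, and Rank-knockout replicate 4 the lowest of its genotype for Slc12a2, Kcnq1, Kcne3 and Kcnn4, while the Cftr libraries of both genotypes lie between 86.0 and 125 CPM.

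The guanylin receptor Gucy2c (ENSMUSG00000042638, chromosome 6, 136697284 to 136781765, minus strand) did not pass the threshold. Its WT libraries were at 543, 263, 614 and 680 CPM and its Rank-knockout libraries at 320, 312, 296 and 435 CPM. WT replicate 2 was below every Rank-knockout library, and the other WT libraries were above them all. The means were 525 ± 183 and 341 ± 63.8 CPM (SD, n = 4), and the log2 fold change was -0.62 (SE 0.24; 95% interval, not adjusted, -1.15 to -0.090; edgeR adjusted p = 0.0723). Without WT replicate 2 it was -0.85 (edgeR adjusted p = 0.000807) and without Rank-knockout replicate 4 -0.76 (0.039). DESeq2 also called it (-0.63, adjusted p = 0.0408), as did edgeR with no filter on low counts (-0.57, 0.004).

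The ligands behaved unequally. Guca2b, uroguanylin (ENSMUSG00000032978, chromosome 4, 119656607 to 119658954, minus strand), was at 844, 1082, 1050 and 969 CPM in WT and at 395, 448, 527 and 506 CPM in Rank-knockout. No Rank-knockout library came near the WT range. The mean fell from 986 ± 106 to 469 ± 59.8 CPM (SD, n = 4), which made the log2 fold change -1.07 (SE 0.15; 95% interval -1.39 to -0.76; edgeR adjusted p = 0.000205), which was the smallest adjusted p of the 9 genes.

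Guca2a, guanylin (ENSMUSG00000023247, chromosome 4, 119637704 to 119639471, plus strand), was at 219, 356, 183 and 174 CPM in WT and at 178, 194, 225 and 188 CPM in Rank-knockout. WT replicate 2 was high, WT replicates 1 and 3 lay among the Rank-knockout libraries, and WT replicate 4 lay just below them. The means were 233 ± 84.5 and 197 ± 20.2 CPM (SD, n = 4), with a log2 fold change of -0.26 (SE 0.20; 95% interval -0.68 to 0.16; edgeR adjusted p = 0.346). Without WT replicate 2 it turned to 0.025 (edgeR adjusted p = 0.916).

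Within a library, Guca2b was 3.03 to 5.72 times Guca2a in WT and 2.21 to 2.68 times in Rank-knockout, again without overlap. The mean log2 difference went from 2.13 ± 0.44 to 1.25 ± 0.12 (SD, n = 4), a change of -0.89, and no test was applied. The difference Guca2b minus Gucy2c overlapped between genotypes, and WT replicate 2 was high in the ligand and low in the receptor.

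The order of the 9 mean levels was the same in both genotypes. In WT it ran from Atp1b1 through Slc26a6, Guca2b, Slc9a3r1, Gucy2c, Guca2a and Slc26a3 to Cftr and Slc9a3. Atp1b1 stood apart from Slc26a6, Slc26a3 from Cftr and Cftr from Slc9a3, whereas each pair of neighbours from Slc26a6 to Slc26a3 overlapped. In Rank-knockout Gucy2c, Guca2a and Slc26a3 were separate from each other, while Slc26a3 and Cftr overlapped, at 132 and 116 CPM.

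Libraries did not rank alike across the 9 genes. Rank-knockout replicate 1 was the lowest of its genotype in 6 of them (Slc26a3, Slc26a6, Slc9a3r1, Atp1b1, Guca2a and Guca2b), and Rank-knockout replicate 4 was the highest in 6. WT replicate 2 was the highest WT library in Slc26a3, Atp1b1, Guca2a and Guca2b and the lowest in Slc9a3r1 and Gucy2c. The spread between WT animals, as the SD in percent of the mean, was smallest in Slc26a3 (9.22%) and largest in Guca2a (36.2%) and Gucy2c (34.9%). In Rank-knockout it was largest in Slc26a3 (34.8%).

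Beyond these 9, a list of 80 other genes of epithelial ion and fluid transport was followed, of which 51 were tested. Of these, 22 fell and 8 rose, where 14.6% and 15.8% of all tested genes did, so that the number that rose was near the background share. The median log2 fold change was -0.55. With library totals 16 fell and 11 rose, where 857 and 2575 of the 9855 tested genes did. With no filter on low counts 23 fell and 12 rose, where 1383 and 1773 of all genes did. The list was drawn up with earlier results of these data known. The count of genes that fell stayed between 18 and 25 when 1 library was left out. The count that rose was 4 without WT replicate 3, 5 without WT replicate 4, 4 without Rank-knockout replicate 3 and 1, Slc12a2, without Rank-knockout replicate 1.

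Scaffolds and regulators of the exchangers moved mainly downward, with 6 lower and 1 higher of 9 tested. Pdzk1, a PDZ scaffold that binds NHE3, DRA and PAT1, went from 440 to 158 CPM, or -1.48 on the log2 scale (SE 0.14; edgeR adjusted p = 9.88e-05). Sgk1, a kinase that stimulates NHE3, went from 139 to 51.8 CPM (-1.44, edgeR adjusted p = 0.000205). Ezr, which links NHERF1 to the actin of microvilli, went from 1437 to 688 CPM (-1.06, edgeR adjusted p = 0.000353). None of the 3 overlapped between genotypes. The scaffold or regulator that rose was the kinase Stk39, which acts on chloride cotransporters (0.51, edgeR adjusted p = 0.0358). It passed when WT replicate 2 or Rank-knockout replicate 4 was left out and failed without any other single library, with values of 0.40 to 0.54. It also did not pass by DESeq2 (0.49, adjusted p = 0.0557) or limma-voom (0.48, adjusted p = 0.061).

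Among other exchangers, 1 of 3 sodium/proton exchangers and 3 of 5 anion or bicarbonate transporters fell. The sodium-bicarbonate cotransporter Slc4a7 went from 565 to 238 CPM (log2 fold change -1.25, edgeR adjusted p = 0.000557). The sodium/proton exchanger that fell was Slc9a2, from 183 to 95.1 CPM (-0.93, edgeR adjusted p = 0.00075). Beside Slc4a7, the anion transporters that fell were the sulfate transporter Slc26a2 (-0.95, edgeR adjusted p = 0.00271) and the sodium-bicarbonate cotransporter Slc4a4 (-0.62, 0.00821). Of the epithelial sodium channel, Scnn1b and Scnn1g had 0 counts and Scnn1a too few to test.

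Chloride channels other than Cftr were represented by Ano6 and Clcn2. Ano6, a calcium-activated channel and lipid scramblase, went from 234 to 104 CPM without overlap (log2 fold change -1.18, edgeR adjusted p = 0.000606). Clcn2 was not called (-0.47, edgeR adjusted p = 0.721) and had 9 counts in WT replicate 2 against 69 to 111 in the other WT libraries. Beside Slc12a2, which rose, the potassium-chloride cotransporter Slc12a7 fell (-0.55, edgeR adjusted p = 0.00691), and it did not pass with library totals (-0.35, 0.0558). Of 4 potassium channels 3 rose, and Kcnk5 fell (-0.73, edgeR adjusted p = 0.0134), a call that library totals removed (-0.53, 0.0542).

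Downstream of the receptor, 2 of 8 tested genes of cyclic nucleotide signalling fell and 1 rose. Prkg2, the cGMP-dependent kinase that acts on NHE3 and CFTR, went from 212, 231, 259 and 290 CPM in WT to 125, 154, 138 and 158 CPM in Rank-knockout. This was a fall of 0.78 on the log2 scale (edgeR adjusted p = 0.0011) without overlap. Pde9a, a cGMP phosphodiesterase, went from 55.3 to 35.5 CPM (-0.64, edgeR adjusted p = 0.023), a call lost without WT replicate 1 (-0.61) and without Rank-knockout replicate 1 (-0.46). Scaling by library totals removed it as well (-0.45, edgeR adjusted p = 0.0906), as did totals that dropped the top 50 genes (-0.51, 0.0594).

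Pde3b, which is low here, rose from 3.95 to 7.82 CPM (1.03, edgeR adjusted p = 0.0333) and did not pass when WT replicate 2 or 4 was left out (0.95 and 0.82), nor when Rank-knockout replicate 1 or 3 was (0.86 and 1.02), nor by DESeq2 (adjusted p = 0.0823). The cGMP phosphodiesterase Pde5a was at 45.7 and 45.9 CPM (0.020, edgeR adjusted p = 0.949).

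Water channels, secretagogue receptors and carbonic anhydrases made up the rest of the list. Of 5 aquaporins Aqp1, Aqp7 and Aqp11 fell (-0.69, -1.52 and -0.86), and Aqp1 alone of these 3 lost its call without Rank-knockout replicate 1 (-0.61) and with library totals (-0.49). Aqp4 rose from 22.0 to 50.8 CPM with overlap (log2 fold change 1.17, edgeR adjusted p = 0.0214). When WT replicate 3 was left out it was 1.046, and 0.85 when Rank-knockout replicate 1 was, and neither passed. Of 4 receptors for secretagogues or hormones, the VIP receptor Vipr1 and the adenosine receptor Adora2b fell (-0.63 and -1.37, edgeR adjusted p = 0.00753 and 0.000764). Of 5 carbonic anhydrases 0 passed by edgeR or DESeq2, and 1, Car9, was higher at an unadjusted edgeR p under 0.05 (0.61, adjusted p = 0.0777). It passed with library totals, with totals that dropped the top 50 genes, with no filter and without WT replicate 1, and Car4 passed with no filter.

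**Figure D5:**
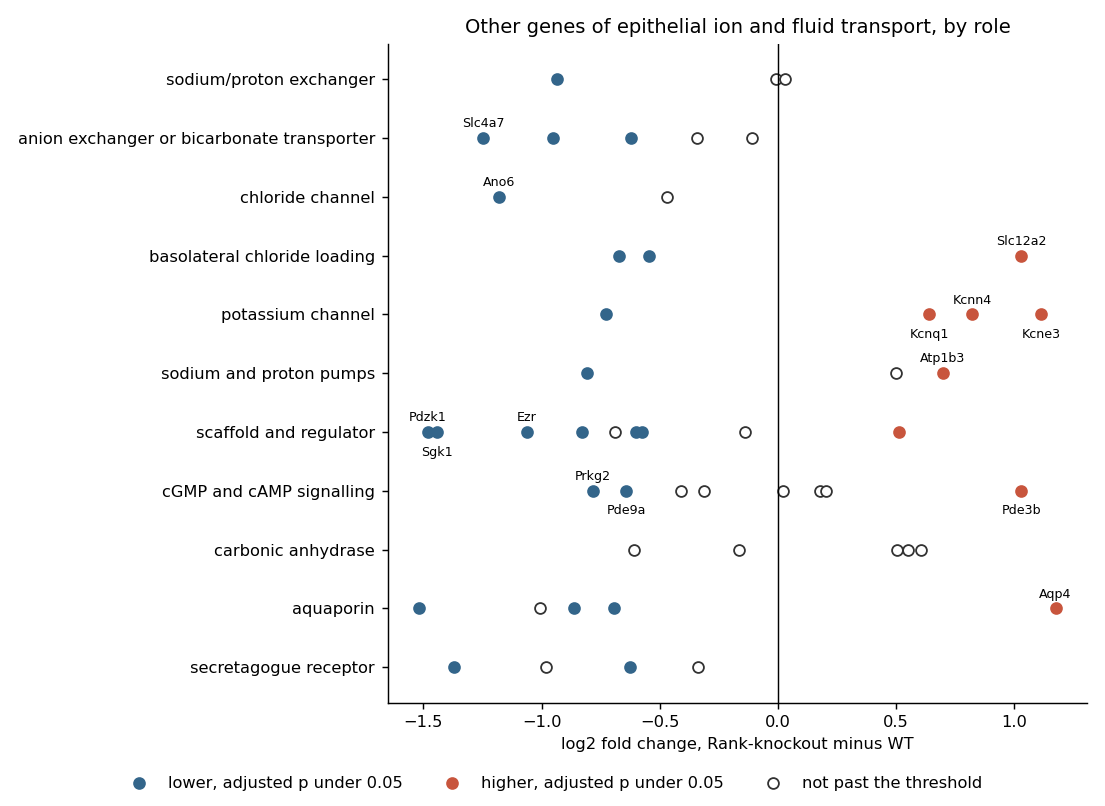
Log2 fold change, Rank-knockout minus WT (horizontal axis), of the 51 tested genes of the wider list, 1 point per gene, in rows by role. Points left of 0 predominate in exchangers, scaffolds, aquaporins and receptors, while Slc12a2 and the potassium channels Kcnq1, Kcnn4 and Kcne3 lie right of 0.

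Markers of position along the crypt to villus axis moved with these genes. Of 10 villus enterocyte markers 9 fell, with a median log2 fold change of -1.17, and their summed level was 18304 to 26713 CPM in WT and 8677 to 12527 CPM in Rank-knockout. Of 10 markers of crypt and cycling cells all rose, with a median of 1.18, and their summed level was 692 to 1039 CPM in WT and 1551 to 2607 CPM in Rank-knockout. The part of either marker list in the results was not tested. Of 7 markers of the epithelium as a whole 3 fell. Goblet cell markers were mixed, with 4 lower and 2 higher of 7, and 3 of 6 Paneth cell markers rose by edgeR, against 5 by DESeq2 and 6 at an unadjusted edgeR p under 0.05, with a median log2 fold change of 1.22 over the 6. Of 7 enteroendocrine and 2 tested tuft cell markers 0 passed by edgeR or DESeq2, and at an unadjusted edgeR p under 0.05 there were 2, Chgb and Tph1, in the first list and 0 in the second.

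Genes with the most similar profile over the 8 libraries were sought among 5977 others, by the root mean square difference of centred log2 CPM, where 0 is an identical profile. For Guca2b these were Lipe (0.089), Scp2 (0.093) and Ubxn2a (0.096), and for Slc9a3 they were Tgfbi (0.15), Clec2h (0.15) and Atxn1 (0.17). Slc26a3 was closest to Slc51a (0.083), with Rnf128 and Them4 next (both 0.14). Slc51a encodes a subunit of the basolateral bile acid transporter and, like Slc26a3, was low in Rank-knockout replicate 1, at 185 CPM against 317 to 407 CPM in the other 3. For Cftr the closest were Slc2a4rg-ps (0.073), Tra2a (0.076) and Hnrnpll (0.079), and for Guca2a Ddrgk1 (0.13), Ppme1 (0.14) and Rlf (0.14).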

How the data were processed

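Lexogen QuantSeq 3′ mRNA-seq libraries were made from total RNA of intestinal epithelial cells. As the paper's methods state, the authors trimmed reads with BBDuk, removed abundant sequences with bowtie2, aligned to GRCm38 (mm10) with STAR and ran featureCounts on the sense strand. The values they deposited are these raw counts, not normalized, which the authors tested with DESeq2. No source mentions molecular identifiers for these libraries, so each PCR copy adds to a count. Of 54532 genes, 33764 had 0 counts in all libraries. Symbols and positions were from GENCODE M21, which held 54495 of the identifiers. Total counts were 1530781 to 4335653 per library, with medians of 1609942.5 in WT and 3070751 in Rank-knockout, so low genes are less precise in most WT libraries.

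Differences between genotypes were tested on the counts in R 4.3.3 with edgeR 4.0.16 (filterByExpr, TMM scaling, robust quasi-likelihood F-test, genotype as the only term), with Benjamini-Hochberg adjustment over all 9855 tested genes and a threshold of 0.05. SE was derived from the F statistic, and 95% intervals from the t distribution. Each library is 1 animal, and the p-values measure the spread between animals. Log2 CPM used a prior count of 2, and ratios between genes within a library carried no test. Tried as alternatives were DESeq2 1.42.0, limma-voom (limma 3.58.1), scaling by RLE, by library totals or by totals without the top 50 genes, no filter, a minimum mean of 5 CPM, the replicate number as a block, each library left out in turn and, for the ratio, a prior count of 0.5 and the median of the exchangers. Leaving out both WT replicate 2 and Rank-knockout replicate 1, and the regional genes, were added after seeing the data. Promoter sequences were from RefSeq.

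The 9 genes and all lists were chosen with earlier results of these data known. Named from the wider list were the 5 smallest p-values in each direction, every called gene of cyclic nucleotide signalling, and Slc12a2, Kcnq1, Kcne3, Prkg2 and Pdzk1. Some genes that this rule selects are left out of the text. For Slc9a3, Slc26a3, Cftr, Guca2a and Guca2b the 3 genes with the closest profile and a mean of at least 20 CPM were also named. Slc9a2, Slc26a2, Slc4a4, Slc12a7, Clcn2, Kcnk5, Stk39, Pde5a, Aqp1, Aqp7, Aqp11, Vipr1, Adora2b, Car9 and the sodium channel genes were named after their values were seen.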

Additional observations from a re-analysis of the deposited data

Results flagged for a closer look

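Among the 4 Rank-knockout libraries, the Gucy2c level of replicate 4 stood apart, at 435 CPM against 296 to 320 CPM in the other 3. Its gap to the nearest of these was 0.832 of the range of the group, just above Dixon's 95% critical value for 4 samples. In all, 20 sets of 4 values were searched, and chance gives about 1 such value among them. Without this library the log2 fold change of Gucy2c was -0.76 (edgeR adjusted p = 0.039) against -0.62 (0.0723) with it.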

How the results depend on the processing

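Slc9a3, Slc26a6, Slc9a3r1, Atp1b1 and Guca2b passed the threshold under all 17 alternatives, with adjusted p-values of at most 0.0136, and the count of lower genes among the 9 ran from 5 to 7, with 6 when both WT replicate 2 and Rank-knockout replicate 1 were left out. The count of higher genes was 1, Cftr, with library totals and 1 with totals that dropped the top 50 genes, and 0 in the 8 fits that left out 1 library. Guca2a turned to 0.025 without WT replicate 2 and to 0.084 without both WT replicate 2 and Rank-knockout replicate 1 (edgeR adjusted p = 0.916 and 0.71), and ran from -0.41 to 0.025 when 1 library was left out. Of the wider list, 8 genes rose in the main setting, 1 to 9 when each library was left out in turn, and 4 without both of those libraries. The exchanger minus Cftr difference of -1.16 became -0.86 with the median of the 3 exchangers and ran from -1.25 to -1.004 when each library was left out. The median is the value of Slc26a3, which moved least. Over all genes, library totals gave 857 lower and 2575 higher genes and totals that dropped the top 50 genes 1006 and 2171, against 1438 and 1555. With no filter on low counts the median of all genes moved by 0.10, and the counts were 1383 and 1773.

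The labels do not say whether equal numbers mean paired animals, and so few libraries cannot decide it. Same-numbered libraries deviated together with correlations of 0.052, 0.15, -0.14 and 0.32. WT replicates 1 and 4 correlated best with the Rank-knockout library of their own number, and WT replicates 2 and 3 did not. With the replicate number as a block, 1602 genes were lower and 1708 higher, and Slc26a3 (-0.59, edgeR adjusted p = 0.0185) and Gucy2c (-0.56, 0.0321) passed. The exchanger difference stayed at -1.16, as a block that holds 1 library of each genotype cannot change a difference of means. Slc26a3 also passed with no filter (-0.50, edgeR adjusted p = 0.0195). Slc9a3 rests on few counts in some libraries. The intervals of Gucy2c and Slc26a3 were the widest of the 9, and that of Cftr the narrowest. Why a call changed under an alternative was not tested, except that leaving out a library leaves fewer samples.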

Other observations

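Genes that mark regions of the intestine, chosen after the data were seen, were read beside the transport genes, because the labels give the tissue as intestine with no region. Of the ileal bile acid genes, Fabp6 was at 0.67 to 2.28 CPM in WT and 3.38 to 9.76 CPM in Rank-knockout, and Slc10a2 was at most 2.25 CPM in any library. Slc51b, the partner of Slc51a in bile acid export, fell from 110 to 65.8 CPM (log2 fold change -0.74, edgeR adjusted p = 0.00793). Cybrd1, an iron reductase of the proximal intestine, was at most 3.43 CPM in any library. Slc40a1, the iron exporter of the proximal intestine, spread widely between WT animals, at 106, 41.3, 32.1 and 12.6 CPM, and was at 27.2, 24.8, 9.89 and 25.6 CPM in Rank-knockout. Gata4, a transcription factor of the proximal intestine, was at 35.5 and 31.3 CPM and was not called (edgeR adjusted p = 0.508). Lct, the lactase gene, which is also on the villus enterocyte list, fell from 1931 to 759 CPM without overlap (log2 fold change -1.35, edgeR adjusted p = 0.000574).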
